A study of Mus musculus with 8 samples.

Results

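Leukocyte adhesion molecules of the vessel wall were examined in single-cell RNA libraries of mouse breast tumour endothelial cells (ECs). The set held 8 of the 20408 genes listed in the expression matrices: the selectins Sele and Selp, the immunoglobulin-type ligands Icam1, Icam2, Vcam1 and Madcam1, the chemokine-binding receptor Ackr1 and the sialomucin Cd34. They were read in the 7159 of 8204 cells that held at least 1 unique molecular identifier (UMI, 1 counted RNA molecule) of Pecam1, the gene of the CD31 protein used for sorting. The ECs came from adult mice that the labels give as c57bl/6, whereas the study's methods describe FVB animals. Spontaneous tumours grew in MMTV-PyMT mice, which carry a viral oncogene under a promoter active in mammary epithelium. Implanted tumours grew in the mammary fat pad of females that received cultured cells of such MMTV-PyMT tumours. Each tumour was injected with PBS or with cGAMP, a dinucleotide that activates STING, and live CD31+ CD45- cells were sorted 3 h later. Either model with either injection made 4 groups of 2 libraries. The methods name 2 mice per group, and the labels do not tie a library to a mouse, so p-values measure the spread between libraries.

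Leukocytes leave the blood in steps. Selectins on the endothelium catch passing cells by their glycans and let them roll, chemokines displayed on the wall activate the integrins of the rolling cell, and integrins then bind ICAM-1, ICAM-2, VCAM-1 or MAdCAM-1 for arrest and crossing. P-selectin is stored in Weibel-Palade bodies and E-selectin is made upon stimulation, and in most tissues both act in venules. ICAM-1 and VCAM-1 are induced by inflammatory cytokines, ICAM-2 is constitutive on endothelium, ACKR1 carries chemokines across venular cells, and MAdCAM-1 marks the mucosal venules that bind the integrin alpha4beta7. CD34 is a sialomucin that can carry glycans for leukocyte binding, and it is widely used as an endothelial marker.

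By GENCODE annotation of GRCm38, Sele lies on chromosome 1 at 164048234 to 164057677 and Selp on the same chromosome at 164115264 to 164150026, both transcribed from the + strand. Chromosome 1 also holds Ackr1 (173331886 to 173333750, - strand), which overlaps Cadm3 on the same strand, and Cd34 (194938819 to 194961279, + strand). The others are on chromosomes 9 (Icam1, 21015985 to 21028817, + strand), 3 (Vcam1, 116109949 to 116129688, - strand), 11 (Icam2, 106377656 to 106388075, - strand) and 10 (Madcam1, 79664559 to 79668537, + strand). Annotated antisense or long non-coding genes overlap Selp, Icam1, Vcam1 and Cd34 on the opposite strand. Whether reads of overlapping genes were told apart was not tested.

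RefSeq promoters (GRCm38.p6) were at hand for 6 of the 8 genes. The 250 bases before the start are printed for Sele and Selp, which fell together in Ctgf venous-like cells, for Icam1, whose level did not pass the test there, and for Madcam1, which was highest in a single small cluster. Capitals mark matches on either strand to the NF-kB consensus, to 2 GAAA blocks set 2 bases apart (a core of interferon-stimulated response elements) or to TTCNNNGAA (the palindrome bound by STAT dimers).
Sele, chr1:164047984-164048233, + strand: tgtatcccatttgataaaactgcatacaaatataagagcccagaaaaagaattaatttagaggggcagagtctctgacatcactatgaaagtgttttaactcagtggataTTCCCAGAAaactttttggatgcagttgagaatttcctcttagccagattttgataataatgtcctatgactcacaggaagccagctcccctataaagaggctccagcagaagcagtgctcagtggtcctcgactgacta
Selp, chr1:164115014-164115263, + strand: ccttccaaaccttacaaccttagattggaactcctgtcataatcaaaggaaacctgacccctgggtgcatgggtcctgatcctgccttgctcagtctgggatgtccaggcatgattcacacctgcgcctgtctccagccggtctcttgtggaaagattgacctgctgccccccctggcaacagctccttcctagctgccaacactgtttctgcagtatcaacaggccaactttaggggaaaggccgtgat
Icam1, chr9:21015690-21015939, + strand: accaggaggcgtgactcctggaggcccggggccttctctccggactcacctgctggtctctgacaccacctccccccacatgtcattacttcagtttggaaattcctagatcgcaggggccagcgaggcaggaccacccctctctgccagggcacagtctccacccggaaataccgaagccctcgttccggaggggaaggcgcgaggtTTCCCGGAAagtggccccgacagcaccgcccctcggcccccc
Madcam1, chr10:79664309-79664558, + strand: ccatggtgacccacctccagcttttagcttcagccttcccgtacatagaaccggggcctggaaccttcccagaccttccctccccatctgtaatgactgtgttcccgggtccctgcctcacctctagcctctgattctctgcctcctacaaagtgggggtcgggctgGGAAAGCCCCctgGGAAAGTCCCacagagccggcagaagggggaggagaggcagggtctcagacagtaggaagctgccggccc
Counting back from -1, the base before the start, Sele held TTCCCAGAA at -140 to -132 and Icam1 held TTCCCGGAA at -42 to -34, and 7.02% of 32851 promoter windows hold the STAT palindrome. Madcam1 held GGAAAGCCCC at -83 to -74 and GGAAAGTCCC at -70 to -61, both matches to the NF-kB consensus, which 3.90% of windows hold. Selp, Ackr1 and Cd34 held no match in this window, and the GAAA pair was in 2.98% of windows and in none of the 6. A match describes letters only.

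The libraries held 97421522 UMIs in all, and the median UMI count of the Pecam1-positive cells was 9523 to 14707.5 in 7 libraries. Implanted cGAMP replicate 1 stood apart, with a median of 3049 and 37.9% of its Pecam1-positive cells under 2000 UMIs. That library also held 97 of the 128 Pecam1-positive cells in the epithelial tumour-like cluster and 69 of the 87 in the immune-like cluster. Summed over the 9 immune markers, its level was 247 CPM (UMI counts with each cell's UMIs scaled to a common total), against 16.8 to 71.2 CPM in the other libraries. The 8 pan-endothelial markers summed to 5051 to 6263 CPM in every library, and 7 cell barcodes were shared between libraries. Levels below are means over cells of the CPM of each cell, with n = 2 libraries per group, and tests were made by limma on log2(CPM + 1) over 10424 genes. Madcam1 was too low for these tests, so 7 of the 8 genes passed the filter of at least 5 CPM in at least 2 libraries.

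The 8 genes marked different parts of the vascular tree. Cells were clustered without these genes, without Pecam1 and without 864 genes that cGAMP raised, and 5799 cells were placed in 14 clusters, named by a leading gene and, where fixed markers allowed, by a vessel type. The clusters rest on other genes of the same cells, so differences between them are descriptions with no test. Pecam1-positive cells left without a type came from a first clustering: 907 unnamed (led by Csn3), 238 mural-like, 128 epithelial tumour-like and 87 immune-like. The mural-like ones numbered 5 and 20 after PBS and 48 and 36 after cGAMP in spontaneous tumours. In implanted tumours they numbered 9 and 4, then 102 and 14. All of these cells stay in the levels over all ECs. The Fjx1 cluster (548 cells) had 6 of 8 venous markers raised, and Tagln, a mural marker, was also among its leading genes, so it goes by Fjx1 alone. The Pgf tip-like cluster also had Kit, Bmp2 and Nos2, which are in the list of immature capillary markers, among its leading genes. The plot of levels by vessel type shows Selp, Ackr1 and Sele high in the same 3 clusters.

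**Figure D1:**
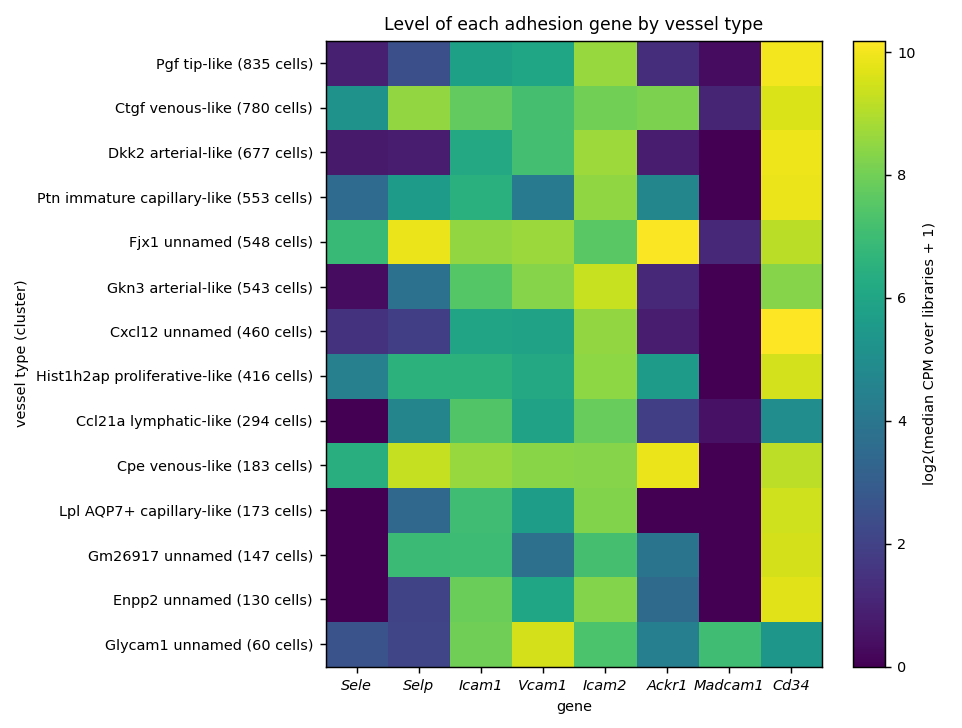
Level of the 8 genes (columns) in 14 clusters of Pecam1-positive cells (rows, with total cells), as log2 of the median CPM over libraries plus 1. Selp, Ackr1 and Sele are bright in the Fjx1, Cpe venous-like and Ctgf venous-like rows, Madcam1 in the Glycam1 row, and Icam2 and Cd34 in most rows.

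Selp, which encodes P-selectin, had its highest median level in the Fjx1 cluster, at 945 CPM over the 8 libraries (range 674 to 1441 CPM). The Cpe venous-like cells followed with 627 CPM and the Ctgf venous-like cells with 370 CPM, and neighbours in this order overlapped in range while the first and the last did not. Dkk2 arterial-like cells had the lowest median and did not exceed 22.9 CPM in any library. Ackr1 had the same order, with 1118 CPM (740 to 1709 CPM) in the Fjx1 cluster, 945 CPM in Cpe venous-like and 286 CPM in Ctgf venous-like cells, the last not overlapping the others in range. Only 3 libraries had 20 or more Cpe venous-like cells, and over those the Ackr1 median was 622 CPM (586 to 740 CPM) and the Selp median 686 CPM. Sele, the gene of E-selectin, was lower throughout, with medians of 116, 85.8 and 35.4 CPM in those clusters. The 3 clusters held a median of 26.1% of the typed cells and 88.7% of Selp UMIs (83.0% to 91.9% over libraries), 92.2% of Ackr1 UMIs (87.1% to 95.4%) and 83.7% of Sele UMIs (67.4% to 92.1%).

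Icam1 and Vcam1 were spread more widely. The same 3 clusters held 50.6% of Icam1 UMIs and 47.7% of Vcam1 UMIs. Icam1 reached medians of 392 CPM in Cpe venous-like cells and 369 CPM in the Fjx1 cluster, against 213 CPM in Ctgf venous-like cells. Vcam1 stood at 742 CPM in the Glycam1 cluster, which had only 60 cells and no library with 20, then at 403 CPM in the Fjx1 cluster, 333 CPM in Cpe venous-like and 322 CPM in Gkn3 arterial-like cells. In Gkn3 arterial-like cells, which had Mgp and Sema3g among their leading genes, Vcam1 ran from 68.0 to 459 CPM over libraries.

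Icam2 and Cd34 were found in most ECs, with other leanings. Icam2 was highest in Gkn3 arterial-like cells, at a median of 646 CPM (556 to 917 CPM), followed by Dkk2 arterial-like cells at 415 CPM and tip-like cells at 390 CPM. The neighbours after the first overlapped in range. Cd34 was highest in the Cxcl12 cluster (1163 CPM), the Pgf tip-like cells (1020 CPM) and the Dkk2 arterial-like cells (977 CPM), and their ranges overlapped. In Ccl21a lymphatic-like cells it did not exceed 50.6 CPM in any library.

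At 2000 UMIs per cell, which left out 1001 shallower cells, 67.9% of Pecam1-positive cells held a Cd34 UMI, 45.1% an Icam2 UMI, 21.1% an Icam1 UMI, 17.3% a Vcam1 UMI, 17.1% a Selp UMI, 14.9% an Ackr1 UMI, 3.85% a Sele UMI and 0.422% a Madcam1 UMI. With all UMIs the shares were 83.1%, 79.5%, 47.8%, 34.6%, 26.8%, 21.7%, 11.2% and 1.23% in the same order. As a background, 87 mural-like cells without Pecam1 showed 3.45% with a UMI (95% Wilson interval 1.18% to 9.65%) for each of Selp, Icam1, Vcam1, Ackr1 and Cd34, 1.15% for Icam2 and 0 of 87 cells, which allows a share of up to 3.45%, for Sele and Madcam1. Only 20 epithelial tumour-like cells without Pecam1 were that deep, and 45% of them held an Icam1 UMI, 25% an Icam2 UMI, 20% a Cd34 UMI and 10% each a Vcam1 or Ackr1 UMI, with none for Sele, Selp or Madcam1. The median depth was 7936 UMIs in those mural-like cells and 11125 UMIs in the Pecam1-positive cells. The Dkk2 arterial-like (0.604%), Cxcl12 (0.891%), tip-like (1.57%) and Gkn3 arterial-like (2.66%) cells lay under that background for Selp, so their few Selp UMIs cannot be read as expression. Intervals cover counting error only.

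**Figure D2:**
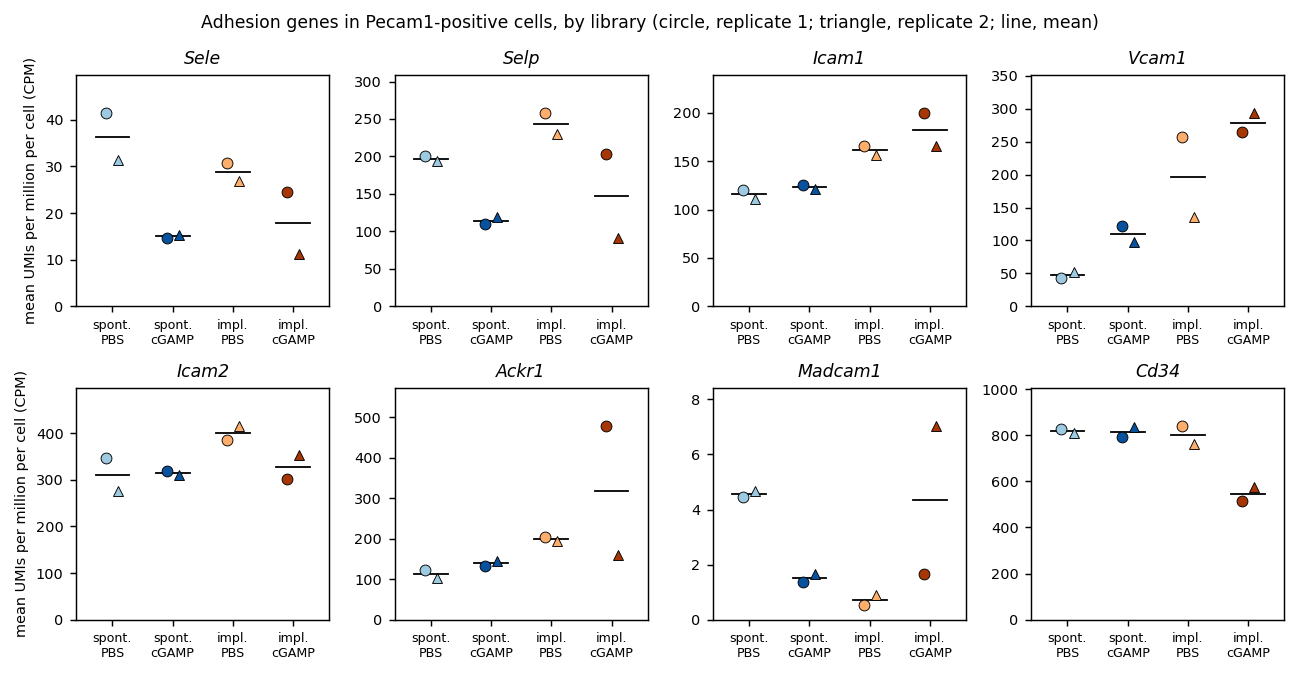
Mean CPM of each of the 8 genes over the Pecam1-positive cells of every library, by group (circles, replicate 1; triangles, replicate 2; lines, group means). Both cGAMP libraries of spontaneous tumours lie under both PBS libraries for Sele and Selp and above them for Vcam1, and both implanted cGAMP libraries lie under all others for Cd34.

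Comparisons over all Pecam1-positive cells asked which adhesion genes differ after cGAMP in each model. Of the 7 genes tested, 2 passed an adjusted p of 0.05 in spontaneous tumours, Sele lower and Vcam1 higher, where 12.7% of all genes tested did. In implanted tumours Cd34 alone passed, where 25% of all genes did, so that share of the 7 genes was under the background. The median log2 fold change of the 7 genes was 0.02 in spontaneous and -0.29 in implanted tumours, beside -0.10 over all genes in both.

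E-selectin RNA fell after cGAMP in spontaneous tumours. Sele stood at 41.4 and 31.4 CPM in the PBS libraries and at 14.6 and 15.3 CPM in the cGAMP libraries, so the groups did not overlap. On the log2 scale cGAMP differed from PBS by -1.21 ± 0.29 (SE, adjusted p = 0.0247). In implanted tumours Sele went from 30.7 and 27.0 CPM to 24.6 and 11.3 CPM (-0.75 ± 0.29, adjusted p = 0.0851), the shallow library holding the 24.6 CPM. Leaving out any 1 of the 4 spontaneous libraries lost the call (log2 fold changes of -1.02 to -1.41, adjusted p from 0.0541 to 0.147).

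P-selectin RNA gave the same direction in both models without passing the test. Selp stood at 200.1 and 194 CPM after PBS and at 110 and 119 CPM after cGAMP in spontaneous tumours (-0.78 ± 0.28, adjusted p = 0.0964). In implanted tumours it stood at 258 and 229 CPM after PBS and at 203 and 91.5 CPM after cGAMP (-0.83 ± 0.28, adjusted p = 0.0547). Both cGAMP libraries lay under both PBS libraries in either model. The share of Cpe venous-like cells, a small cluster rich in Selp and Sele, also fell. It went from 2.52% and 2.13% to 1.40% and 0.879% of typed cells in spontaneous and from 5.07% and 7.35% to 1.60% and 1.17% in implanted tumours. The larger Ctgf venous-like share overlapped between PBS and cGAMP (18.1% and 17.2%, then 15.8% and 21.8% in spontaneous, 12.1% and 9.26%, then 9.39% and 8.01% in implanted tumours). The Fjx1 share overlapped too (7.20% and 6.58%, then 7.02% and 6.85% in spontaneous, 11.9% and 9.67%, then 14.7% and 7.42% in implanted tumours). The 8 venous markers include Vwf, which itself fell after cGAMP in both models. Together the 8 markers summed to 2443 and 2374 CPM after PBS and 2060 and 2143 CPM after cGAMP in spontaneous tumours. In implanted tumours they summed to 2699 and 2648 CPM after PBS and 2168 and 1783 CPM after cGAMP. Their part in the selectin levels over all ECs was not tested, and fewer cells of a type and less RNA per cell cannot be told apart in these means. Without implanted cGAMP replicate 1, the shallow library, Selp passed in both models (-0.78, adjusted p = 0.00028, and -1.40, adjusted p = 3.8e-05) and Sele passed in implanted tumours (-1.28, adjusted p = 0.0014). Without implanted cGAMP replicate 2, Selp passed in spontaneous tumours (adjusted p = 0.00028), and the implanted values were -0.22 for Sele and -0.26 for Selp. Without the mural-like, epithelial tumour-like and immune-like clusters, Selp passed in both models as well (-0.74 and -1.05), and Sele did in implanted tumours (-0.89, adjusted p = 0.0112).

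Vascular cell adhesion molecule RNA rose after cGAMP in spontaneous tumours. Vcam1 stood at 43.5 and 52.1 CPM after PBS and at 123 and 97.8 CPM after cGAMP (1.19 ± 0.24, adjusted p = 0.0136). In implanted tumours the PBS libraries themselves lay far apart, at 257 and 136 CPM, and the cGAMP libraries stood at 265 and 293 CPM (0.57 ± 0.24, adjusted p = 0.118). Without implanted PBS replicate 1, the higher one, the implanted value was 1.03 (adjusted p = 0.00409), and without implanted PBS replicate 2 it was 0.12 (adjusted p = 0.697). Without spontaneous PBS replicate 1 or spontaneous cGAMP replicate 1, the spontaneous rise lost its call (adjusted p of 0.0943 and 0.116).

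The other integrin ligands did not pass the test over all ECs. Icam1 stood at 121 and 111 CPM after PBS and 126 and 121 CPM after cGAMP in spontaneous tumours (0.09 ± 0.10, 95% interval -0.13 to 0.32). In implanted tumours it stood at 165 and 157 CPM, then 199.6 and 166 CPM (0.17 ± 0.10, adjusted p = 0.235). Icam2 went from 346 and 275 CPM to 319 and 309.6 CPM in spontaneous tumours (0.02 ± 0.11), and from 386 and 414 CPM to 302 and 352 CPM in implanted tumours (-0.29 ± 0.11, adjusted p = 0.0887). The spontaneous groups overlapped for Icam2 and the implanted groups did not. Without implanted cGAMP replicate 2 both passed in implanted tumours (Icam1 0.31, adjusted p = 0.0465, Icam2 -0.40, adjusted p = 0.0452), and Icam2 also passed there without either spontaneous PBS library (adjusted p of 0.049 and 0.0485).

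Over all ECs, Ackr1 rested on 1 library in implanted tumours. It stood at 205 and 194 CPM after PBS and at 477 and 159 CPM after cGAMP (0.47 ± 0.38, adjusted p = 0.407), the 477 CPM being that of the shallow library. Without that library the value was -0.32, and without implanted cGAMP replicate 2 it was 1.25 (adjusted p = 0.00018). That library had 14.7% of its typed cells in the Fjx1 cluster, the cluster richest in Ackr1, against 7.42% in implanted cGAMP replicate 2 and 11.9% and 9.67% in the implanted PBS libraries. The part of that share in the Ackr1 level was not tested. In spontaneous tumours Ackr1 stood at 123 and 102 CPM after PBS and 133 and 145 CPM after cGAMP (0.31 ± 0.38, adjusted p = 0.631). Within the Fjx1 cluster the mean of Ackr1 was higher after cGAMP in both models. It was 757 ± 24.0 CPM (SD) after PBS and 1055 ± 179 CPM after cGAMP in spontaneous tumours. In implanted tumours it was 1156 ± 143 CPM and 1673 ± 51.0 CPM, and neither change passed in that cluster.

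Cd34 fell after cGAMP in implanted tumours. It stood at 838 and 763 CPM after PBS and at 516 and 575 CPM after cGAMP (-0.55 ± 0.08, adjusted p = 0.0012), and the call held in every alternative run (highest adjusted p 0.0145). In the same comparison the 8 lymphatic markers rose, from 660 and 475 CPM to 1770 and 1809 CPM. The 10 AQP7+ capillary markers fell, from 7618 and 7430 CPM to 4107 and 6082 CPM. Ccl21a lymphatic-like cells, which held little Cd34, made 6.45% and 4.23% of typed cells after PBS and 7.36% and 9.38% after cGAMP, and the part of these in the Cd34 level was not tested. Within the 7 clusters of implanted tumours tested by limma, Cd34 passed as lower in 2, given below, and as higher in 0. An unadjusted p under 0.05 was found in 4 of the 7. In spontaneous tumours all 4 libraries lay between 791 and 837 CPM (-0.01 ± 0.08, 95% interval -0.19 to 0.17). The implanted response minus the spontaneous one came to -0.54 ± 0.11 (adjusted p = 0.0767). None of the 7 genes passed that test of the difference by limma, 1 had an unadjusted p under 0.05, and 0.662% of all genes passed.

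The 7 most populous clusters had at least 20 cells in each library and were tested 1 by 1. In each model 44 pairs of a gene and a cluster could be tested, and 10 pairs passed in spontaneous and 10 in implanted tumours. In spontaneous tumours, the share of all genes called was 6.83% in Pgf tip-like, 5.84% in Ctgf venous-like, 6.08% in Dkk2 arterial-like, 1.94% in Ptn immature capillary-like, 2.92% in Fjx1, 1.43% in Gkn3 arterial-like and 2.67% in Cxcl12 cells. In implanted tumours it was 16.3%, 8.83%, 12.3%, 10.3%, 2.87%, 1.12% and 5.19% in the same order. Leaving out any 1 library kept 5 of the 10 spontaneous and 3 of the 10 implanted calls, and the plot of responses within vessel types gives every pair.

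**Figure D3:**
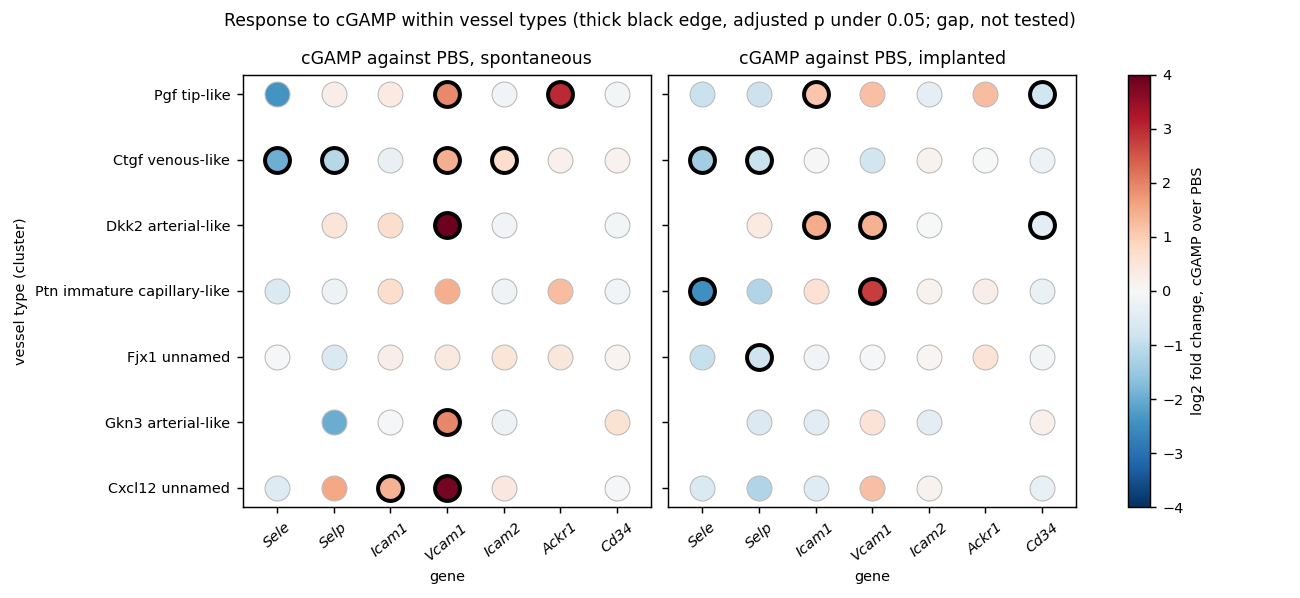
Log2 fold change of cGAMP over PBS (colour) for each gene tested (columns) in 7 clusters (rows) of spontaneous (left) and implanted (right) tumours; thick edges mark an adjusted p under 0.05 and gaps mark genes under the filter. Sele and Selp are blue with thick edges in the Ctgf venous-like row of both models, and Vcam1 is red with thick edges in 5 rows on the left and 2 rows on the right.

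Both selectins fell in Ctgf venous-like cells of both models. In these cells Sele stood at 109 and 121 CPM in the spontaneous PBS libraries and at 29.1 and 28.9 CPM in the cGAMP libraries (-1.95 ± 0.25, adjusted p = 5.1e-05). In implanted tumours it stood at 57.0 and 41.7 CPM, then at 24.2 and 13.3 CPM (-1.39 ± 0.25, adjusted p = 0.0019). Selp stood at 551 and 569 CPM, then at 256 and 254 CPM, in spontaneous tumours (-1.13 ± 0.21, adjusted p = 0.0019). In implanted tumours Selp went from 529 and 398 CPM to 341 and 179 CPM (-0.89 ± 0.21, adjusted p = 0.0114). None of these 4 pairs of groups overlapped. A coarser clustering (resolution 0.3) joined 467 of these 780 cells with the Ptn immature capillary-like cells in 1 cluster, and there Selp in both models and Sele in implanted tumours did not pass (adjusted p 0.0563 to 0.0994). Leaving out implanted PBS replicate 1 (-0.68, adjusted p = 0.128) or implanted cGAMP replicate 2 (-0.43, adjusted p = 0.11) also lost the implanted Selp call, and the other 3 calls held without any 1 library.

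In the Fjx1 cluster, where selectin levels were highest, Selp fell in implanted tumours from 1305 and 1441 CPM to 674 and 894 CPM (-0.82 ± 0.18, adjusted p = 0.0133). With UMIs summed per library that change was -0.36 and did not pass (adjusted p = 0.505), and the call was also lost without either implanted PBS library or without implanted cGAMP replicate 1 (adjusted p 0.0711 to 0.161). In spontaneous tumours Selp went there from 996 and 1336 CPM to 853 and 706 CPM (-0.57 ± 0.18, adjusted p = 0.113). Sele in that cluster stood at 138 and 96.5 CPM after PBS and 136 and 92.4 CPM after cGAMP in spontaneous tumours (-0.04), so the groups overlapped. In implanted tumours the mean of Sele there was 159.7 ± 2.98 CPM (SD) after PBS and 84.2 ± 16.9 CPM after cGAMP. That lower level did not pass the test. In implanted Ptn immature capillary-like cells Sele stood at 10.3 and 10.9 CPM, then at 1.32 and 0.962 CPM (-2.44 ± 0.61, adjusted p = 0.0177). Over all libraries, 2.73% of these cells held a Sele UMI at 2000 UMIs, while the mural-like background was 0 of 87 cells, which allows up to 3.45%. That pooled share cannot tell whether Sele was expressed in these cells or changed there. The call was lost without either implanted PBS library. Whether the selectin response differed between clusters was not tested.

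**Figure D4:**
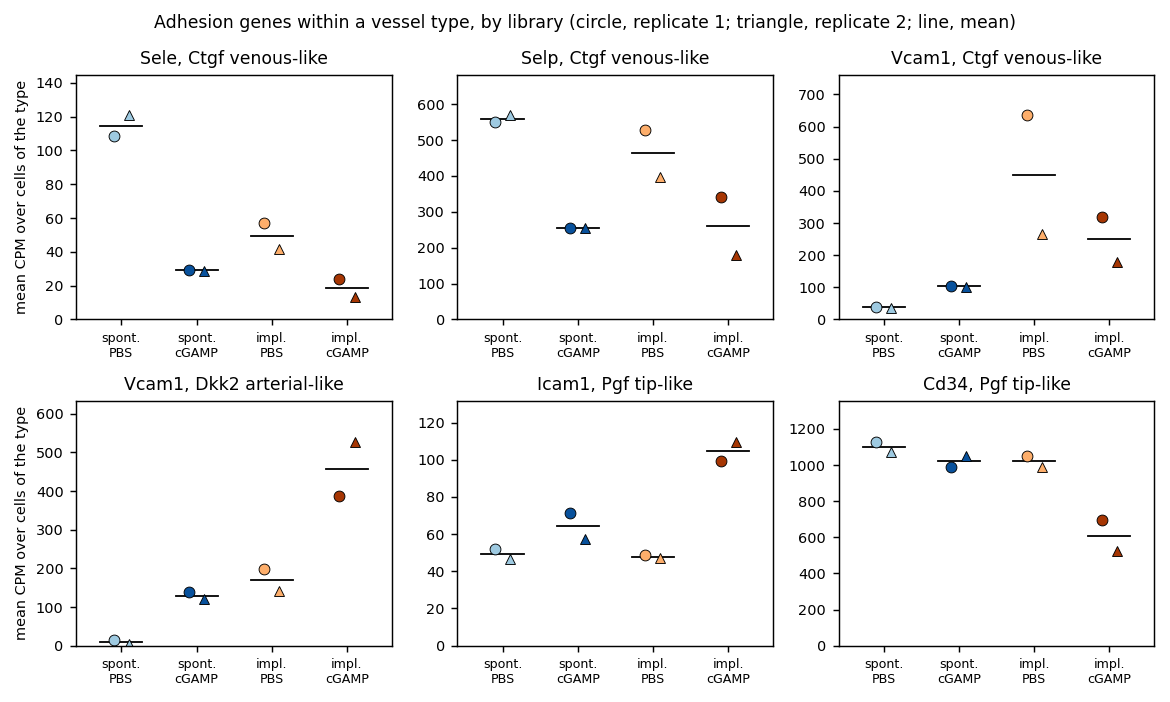
Mean CPM of a gene over the cells of 1 cluster in every library, by group (circles, replicate 1; triangles, replicate 2; lines, group means), for Sele, Selp and Vcam1 in Ctgf venous-like, Vcam1 in Dkk2 arterial-like, and Icam1 and Cd34 in Pgf tip-like cells. Vcam1 in Ctgf venous-like cells is highest in implanted PBS replicate 1, at 635 CPM, whereas in Dkk2 arterial-like cells it is highest in the implanted cGAMP libraries, at 386 and 528 CPM.

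Vcam1 rose after cGAMP in 5 of 7 clusters of spontaneous tumours. The largest changes were in cells where PBS libraries held little of it. In Dkk2 arterial-like cells it stood at 13.5 and 4.10 CPM after PBS and 138 and 121 CPM after cGAMP (3.92 ± 0.34, adjusted p = 4.9e-07). In the Cxcl12 cluster it stood at 2.94 and 3.22 CPM after PBS and 44.3 and 71.7 CPM after cGAMP (3.81 ± 0.55, adjusted p = 0.000154). It also rose in Gkn3 arterial-like (1.96 ± 0.33), Pgf tip-like (1.93 ± 0.48) and Ctgf venous-like cells (1.45 ± 0.29, adjusted p = 0.0051). Each of these last 3 calls was lost without some of the spontaneous libraries (adjusted p up to 0.115, 0.225 and 0.077), whereas those in Dkk2 arterial-like and Cxcl12 cells held without any 1 library. In the Fjx1 cluster Vcam1 already stood at 227 and 328 CPM after PBS, against 468 and 276 CPM after cGAMP (0.40, adjusted p = 0.513).

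In implanted tumours Vcam1 rose in 2 of 7 clusters. In Dkk2 arterial-like cells it went from 197 and 141 CPM to 386 and 528 CPM (1.43 ± 0.34, adjusted p = 0.0097), and the call was lost without implanted PBS replicate 2 or implanted cGAMP replicate 2 (adjusted p of 0.131 and 0.105). In Ptn immature capillary-like cells it went from 10.2 and 21.7 CPM to 74.9 and 151 CPM (2.75 ± 0.59, adjusted p = 0.0063), without implanted PBS replicate 1 it did not pass (adjusted p = 0.111), and at resolution 0.3, in the joined cluster, the value was -0.46. In Ctgf venous-like cells the values were 635 and 265 CPM after PBS and 319 and 179 CPM after cGAMP (-0.77 ± 0.29, adjusted p = 0.12), so the groups overlapped. The difference of the responses passed for Vcam1 in Ctgf venous-like cells (-2.22 ± 0.42, adjusted p = 0.0070) and in Dkk2 arterial-like cells (-2.49 ± 0.48, adjusted p = 0.0354). On the log2 scale the implanted response was the lower in both. In Dkk2 arterial-like cells the group means went from 8.80 to 129 CPM in spontaneous and from 169 to 457 CPM in implanted tumours. There the rise in CPM was the larger in implanted tumours, and the spontaneous PBS level was low. Both tests of the difference share the PBS libraries with the comparison of the models after PBS. These were 2 of 44 pairs, and the share of all genes passing was 0.87% in Pgf tip-like, 1.44% in Ctgf venous-like, 0.353% in Dkk2 arterial-like, 0.186% in Ptn immature capillary-like, 0.576% in Fjx1, 0% in Gkn3 arterial-like (536 genes had an unadjusted p under 0.05) and 0.126% in Cxcl12 cells.

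Icam1 rose after cGAMP in 2 clusters of implanted tumours. In Pgf tip-like cells it went from 48.7 and 47.0 CPM to 99.1 and 109.7 CPM (1.11 ± 0.19, adjusted p = 0.00093). In Dkk2 arterial-like cells it went from 67.0 and 52.9 CPM to 182 and 155 CPM (1.48 ± 0.33, adjusted p = 0.0064), which was lost without implanted PBS replicate 2 or implanted cGAMP replicate 1 (adjusted p of 0.0826 and 0.0557). In spontaneous tumours it rose in the Cxcl12 cluster, from 39.2 and 12.9 CPM to 63.6 and 59.2 CPM (1.40 ± 0.37, adjusted p = 0.0487), and the value was 0.64 without spontaneous PBS replicate 2 (adjusted p = 0.731). That call was also lost without either spontaneous cGAMP library or either implanted PBS library. In Ctgf venous-like cells, where Icam1 was higher, it stood at 237 and 215 CPM after PBS and 194 and 171 CPM after cGAMP in spontaneous tumours (-0.31, adjusted p = 0.386).

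The remaining members gave 4 calls. Icam2 rose in Ctgf venous-like cells of spontaneous tumours from 139 and 167 CPM to 260 and 253 CPM (0.74 ± 0.13, adjusted p = 0.0012), and at resolution 0.3 the change was 0.08 (adjusted p = 0.782). Ackr1 rose in spontaneous Pgf tip-like cells from 0.53 and 0.77 CPM to 9.01 and 15.6 CPM (2.97 ± 0.68, adjusted p = 0.0148), a call lost without any 1 spontaneous library. Over all libraries, 0.605% of tip-like cells held an Ackr1 UMI at 2000 UMIs, which lay under the mural-like background. At that depth the share in tip-like cells of the spontaneous cGAMP libraries alone was not measured, so whether Ackr1 was expressed there was not tested. Cd34 fell in implanted Pgf tip-like cells from 1051 and 989 CPM to 693 and 523 CPM (-0.76 ± 0.13, adjusted p = 0.00099). It also fell in implanted Dkk2 arterial-like cells from 1227 and 1161 CPM to 895 and 873 CPM (-0.43 ± 0.13, adjusted p = 0.0345), and with median-of-ratios scaling the latter was -0.24 (adjusted p = 0.282). The Dkk2 call was also lost without any 1 implanted library (adjusted p 0.0804 to 0.225), and the tip-like call held.

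Comparing the models, Vcam1 and Icam1 passed as higher in implanted tumours after PBS and after cGAMP, most of these calls depending on single libraries. After PBS, Vcam1 was higher by 1.95 ± 0.24 on the log2 scale (adjusted p = 0.0018) and Icam1 by 0.47 ± 0.10 (adjusted p = 0.0217), and these 2 of 7 genes passed where 7.83% of all genes did. After cGAMP, Vcam1 was higher by 1.34 ± 0.24 (adjusted p = 0.0093), Icam1 was higher by 0.56 ± 0.10 (adjusted p = 0.0088) and Cd34 was lower (-0.58 ± 0.08, adjusted p = 0.0032), 3 of 7 genes where 13.8% of all genes passed. For none of these 5 results did the 2 groups overlap. The Icam1 call after PBS was lost without any 1 of the 4 PBS libraries (log2 fold changes of 0.41 to 0.53, adjusted p from 0.0518 to 0.16). Without spontaneous cGAMP replicate 2 all 3 calls after cGAMP were lost (Vcam1 1.18, adjusted p = 0.0997, Icam1 0.53, adjusted p = 0.0846, Cd34 -0.54, adjusted p = 0.0514). After PBS, Ackr1 averaged 112 ± 14.6 CPM (SD) in the spontaneous model and 199.6 ± 7.73 CPM in the implanted one (0.83 ± 0.38, adjusted p = 0.214).

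Within clusters, the higher Vcam1 of implanted PBS libraries was found in 5 of 7. It reached 3.43 ± 0.29 on the log2 scale in Ctgf venous-like, 4.59 ± 0.55 in Cxcl12, 4.29 ± 0.34 in Dkk2 arterial-like, 2.18 ± 0.48 in Pgf tip-like and 2.0 ± 0.33 in Gkn3 arterial-like cells (adjusted p from 3.9e-07 to 0.029), and the first 3 held without any 1 library. The implanted PBS libraries differed from each other in it, at 262 and 35.9 CPM in the Cxcl12 cluster and 155 and 32.9 CPM in tip-like cells. In Ctgf venous-like cells Icam2 was higher in implanted tumours (0.83 ± 0.13) and Sele was lower (-1.22 ± 0.25, adjusted p = 0.0044). At resolution 0.3 the Icam2 value was 0.35 (adjusted p = 0.0651), and the Sele call was lost without spontaneous PBS replicate 2 or implanted PBS replicate 2 (adjusted p of 0.0763 and 0.0709). Icam1 was higher in the Cxcl12 cluster (1.87 ± 0.37) and Ackr1 in the Fjx1 cluster (0.61 ± 0.15, adjusted p = 0.0494). The Icam1 call was lost without spontaneous PBS replicate 2 (1.11, adjusted p = 0.21) or either implanted PBS library, and its value at resolution 0.3 was 0.56 (adjusted p = 0.232). The Ackr1 call was lost without any 1 PBS library or any 1 implanted cGAMP library (adjusted p up to 0.825). Of 44 pairs 9 passed, of which 4 held without any 1 library, and the share of all genes passing was 2.92% in Pgf tip-like, 9.34% in Ctgf venous-like, 2.16% in Dkk2 arterial-like, 0.793% in Ptn immature capillary-like, 1.84% in Fjx1, 0.0854% in Gkn3 arterial-like and 1.52% in Cxcl12 cells.

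Madcam1 was highest in the Glycam1 cluster, 60 cells led by Glycam1, Ccl20 and Cyp1b1, in which it reached a median of 132 CPM (3.40 to 288 CPM over 7 libraries). That cluster held a median of 57.1% of the Madcam1 UMIs of typed cells, with a range of 4.55% to 94.3% over libraries. At 2000 UMIs per cell, 27.6% of those cells held a Madcam1 UMI, and no other cluster passed 1.04%. Over all Pecam1-positive cells Madcam1 stood at 4.47 and 4.66 CPM in spontaneous PBS, 1.36 and 1.64 CPM in spontaneous cGAMP, 0.517 and 0.906 CPM in implanted PBS and 1.68 and 7.02 CPM in implanted cGAMP libraries. The Glycam1 cluster held 11 and 9, 5 and 3, 0 and 4, and 11 and 17 cells in those libraries, and the part of these few cells in the level was not tested. In that cluster Cd34 did not pass 283 CPM in any library and Sele did not pass 17.1 CPM.

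Other genes of leukocyte traffic were read in the same fit. Of 15 other endothelial adhesion and transmigration genes tested, 2 rose and 1 fell after cGAMP in spontaneous tumours, and 7 rose and 1 fell in implanted tumours, with list medians of 0.00 and 0.16 beside -0.10 over all genes. In these comparisons 12.7% and 25% of all genes tested passed, which is the background for the counts of this and the following lists. Cd47, the ligand of SIRP-alpha, rose in both models (0.71 and 0.88), and Bcam, a laminin receptor, fell in both (-0.53 and -0.81). In implanted tumours Cd44 (1.72), a hyaluronan receptor, and Alcam (1.36), the ligand of CD6, also rose. Of 13 cytoplasmic partners of ICAM-1 and VCAM-1, 2 fell in spontaneous and 3 in implanted tumours and none rose by limma (5 and 3 had an unadjusted p under 0.05), with Rdx, the linker radixin, called in both (-0.27 and -0.47). These counts are near the 12.7% and 25% of all genes.

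Of 10 selectin ligand and glycan genes tested, 3 fell in spontaneous tumours, where 12.7% of all genes passed, and 1 rose and 1 fell in implanted tumours, where 25% did. Glycam1, a mucin of high endothelial venules, fell in spontaneous tumours (-4.54, adjusted p = 0.0126 by limma). The 5 high-endothelial markers, a list that includes Glycam1 and Gcnt1, summed there to 509 and 556 CPM after PBS and 83.2 and 58.7 CPM after cGAMP. Chst2, a sulphotransferase of glycans, fell in spontaneous (-0.43) and rose in implanted tumours (0.43), and the difference passed (0.86, adjusted p = 0.0265). Gcnt1, the core 2 branching enzyme, fell in both (-0.93 and -0.89). Of the 6 Weibel-Palade body genes, Vwf, the main cargo stored with P-selectin, fell in both models (-1.37 and -2.22) and Cd63, a membrane protein of the granule, rose in both (0.93 and 1.58). Angpt2, another cargo, rose in implanted tumours (2.55), and the difference of the responses passed (2.10, adjusted p = 0.021).

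The 14 TNF and NF-kB genes had 3 rises in spontaneous tumours and 6 rises and 1 fall in implanted tumours, with list medians of 0.30 and 0.36, where 12.7% and 25% of all genes passed. Ccl2, a monocyte chemokine, led with 3.32 and 4.58, and Irf1 rose in spontaneous tumours (0.97). All 6 interferon genes rose in both models, by medians of 5.05 and 3.73, and after PBS all 6 had a higher level in the implanted model (median 1.73). Of the 3 sheddases tested none passed by limma in either model, and 1 had an unadjusted p under 0.05 in each.

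Likeness to each gene was measured by Pearson's r of log2 levels over 83 points of a cluster in a library with at least 20 cells, from 13 clusters. The points share libraries and cells, so r is a description. Masp1, a complement-activating protease, had the highest r with Ackr1 (0.88), Selp (0.83) and Sele (0.79) among genes outside the 8. Among the 8 themselves, r was 0.86 for Selp and Ackr1, 0.84 for Sele and Ackr1 and 0.82 for Sele and Selp. Nrp1, a VEGF co-receptor, was, outside the 8, most like Cd34 (0.91), followed by Sparcl1 (0.90) and Prnp (0.89). Il6st, the gp130 cytokine receptor, was most like Icam1 (0.71), Pla2g16 most like Vcam1 (0.80) and Trappc6b most like Icam2 (0.75). Vcam1 and Sele had an r of 0.09, and Icam2 and Selp one of -0.47.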

How the data were processed

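The authors aligned reads to mm10 with Cell Ranger 3.0.0 and, in Seurat 3.1.1, kept cells with at least 500 genes and at most 10% mitochondrial UMIs. The deposited values are natural log values, ln(1 + 10000 × UMIs / total of the cell), as the values themselves show, and whole UMIs were recovered for 100% of values within 0.01. From these, CPM per cell were averaged over the Pecam1-positive cells of each library. Limma 3.58.1 (R 4.3.3, eBayes with trend) was fitted to log2(CPM + 1) over all 8 libraries, with Benjamini-Hochberg adjustment over all genes and a threshold of 0.05. Fold changes are on that scale. Clustering in Seurat 5.3.0 followed the study's settings (2500 features, 30 components), here at resolution 0.5. No doublet caller was run. The members and gene lists were chosen with earlier results of these data known. The genes named were the 8 members and at most 4 called genes per list and comparison with the largest absolute log2 fold change. Comparisons of the models within clusters were added after the values were seen. The fit was tested on simulated data. Alternatives covered cell sets, scaling, pseudocounts (0.5 and 5), filters, clustering resolution (0.3 and 0.8), a replicate block and each library left out. One gene of the lists, and the list that held it, are not reported here.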

Additional observations from a re-analysis of the deposited data

Results flagged for a closer look

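Within 2 clusters the response of Vcam1 to cGAMP differed between the tumour models by a test of the difference itself, in a limma fit of all 8 libraries. The test is on the log2 scale. In CPM the rise in Dkk2 arterial-like cells was the larger in implanted tumours. Its group means went from 169 to 457 CPM there and from a low 8.80 to 129 CPM in spontaneous tumours. In Ctgf venous-like cells the implanted minus the spontaneous response was -2.22 (adjusted p = 0.0070, range over alternatives 4.98e-05 to 0.0927), and the call was lost without spontaneous cGAMP replicate 1 (-2.19, adjusted p = 0.0534). The PBS libraries stood at 39.3 and 35.1 CPM in spontaneous and at 635 and 265 CPM in implanted tumours. In Dkk2 arterial-like cells it was -2.49 (adjusted p = 0.0354, range over alternatives 0.000183 to 0.315), with higher cGAMP than PBS libraries in both models. That call was lost without either spontaneous cGAMP library, without implanted PBS replicate 1 or without either implanted cGAMP library (-2.25 to -2.71, adjusted p 0.0821 to 0.315).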

How the results depend on the processing

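The counts were 1322 genes and 2 members (cGAMP, spontaneous), 2609 and 1 (cGAMP, implanted), 69 and 0 (difference), 816 and 2 (models after PBS) and 1434 and 3 (models after cGAMP). With UMIs summed per library, genes called were 2839 (spontaneous), 112 (difference) and 1317 (after PBS), with 4 members in implanted tumours and 4 after PBS. With no filter on low values they were 812, 0, 327 and 784 (spontaneous, difference, after PBS, after cGAMP) and without limma's trend 771, 0, 414 and 843, with 0 members in spontaneous tumours and 1 after PBS in both. Without the mural-, epithelial- and immune-like clusters, 3 members passed in implanted tumours and 1 in the difference. All deposited cells gave 2 implanted members and 43 difference genes, and cells of at least 2000 UMIs gave 2. Only cells given a vessel type, an alternative chosen after seeing the data, gave 4 members in implanted tumours and 4 after PBS. Within clusters, the 20 cGAMP calls became 12 with no filter, the 2 differences became 1 with summed UMIs, 0 with no filter and 4 at resolution 0.3, and the 9 calls after PBS became 5 with no filter. Leaving out 1 library gave 446 to 1826, 1287 to 2490, 2 to 176, 219 to 1242 and 156 to 1467 genes in the order of the first sentence, with 0 to 3, 1 to 4, 0 to 2, 1 to 5 and 0 to 6 members, and 15 to 21, 0 to 4 and 4 to 9 calls within clusters. Values changed sign as follows, mostly near 0. In spontaneous tumours Icam1 was -0.072 with summed UMIs, Icam2 ran from -0.14 to 0.19 over libraries left out, and Cd34 was 0.012 without the mural-, epithelial- and immune-like clusters, 0.033 with at least 2000 UMIs, 0.088 with median-of-ratios scaling, 0.048 in typed cells and -0.051 to 0.031 over libraries left out. In implanted tumours Ackr1 ran from -0.32 to 1.25. In the difference Selp was 0.13 with at least 2000 UMIs and 0.17 with summed UMIs, Ackr1 was -0.11 without those clusters and -0.16 in typed cells, and libraries left out gave Sele -0.062 to 0.995, Selp -0.62 to 0.52, Icam1 -0.051 to 0.22 and Ackr1 -0.63 to 0.94. After PBS Cd34 was 0.044 with median-of-ratios scaling and -0.10 to 0.032 over libraries left out. After cGAMP Sele was -0.078 without those clusters and -0.23 in typed cells, Selp was -0.024 without those clusters, and libraries left out gave Sele -0.38 to 0.68, Selp -0.32 to 0.82 and Icam2 -0.058 to 0.16. Vcam1 within Ptn immature capillary-like cells of implanted tumours was -0.46 at resolution 0.3. Causes of these changes were not tested. Median-of-ratios scaling moved the share of calls that were higher from 40.2% to 65.3% (spontaneous), 34.3% to 51.7% (implanted), 43.3% to 65.4% (after PBS) and 38.0% to 58.3% (after cGAMP). Replicate numbers did not pair the libraries (r of deviations between groups -0.216 to 0.125 over 10424 genes). With the replicate block, 1230, 2524, 58, 741 and 1362 genes passed, and 3 members did in implanted tumours. The design had 2 libraries per group, and 1 of the implanted cGAMP pair was shallow; the smallest change it could detect was not measured.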
